A study of Mus musculus with 12 samples.

Results

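The genes described here are Ctnnb1, which encodes β-catenin, and 9 others: Jup, Ctnna1, Ctnnd1, Ctnnbip1, Cdh1, Cdh2, Apc, Axin1 and Gsk3b. Their products bind or regulate β-catenin or, like those of Jup and Ctnnd1, act at the same cadherins. Every probe set whose only gene symbol in the platform annotation is one of these was taken, with no regard to its values, which gave 28 of 45037 probe sets for 10 of 18193 genes. They were measured in 12 mouse embryonic pancreata, each on its own Affymetrix MOE430 2.0 array. The β-catenin KO pancreata (Pdx1Cre/+; beta-catenin flox/flox) numbered 4 at E14.5 (KO_540C, KO_540G, KO_615A and KO_615B) and 4 at E16.5 (KO_591D, KO_541J, KO_541L and KO_591C). The wildtype pancreata, also from matings of Pdx1Cre/+; beta-catenin flox/+ mice, numbered 2 at E14.5 (WT_522B and WT_522C) and 2 at E16.5 (WT_628G and WT_622A). The labels do not show KO and wildtype pancreata to be littermates. Whether a wildtype embryo carried the Cre transgene or a floxed allele is not given in the sources used here. The earlier day is E14.5 in the sample names but E14.6 in the submitters' design text. The files give every signal divided by the wildtype average of its own day (n = 2), so that 1 stands for that average. How abundant a transcript was, and how it developed with time, is thereby lost. Values are listed below in the order in which the pancreata are named here.

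β-catenin works in 2 places. At the cell membrane it joins the tail of a cadherin to α-catenin, and so to the actin cytoskeleton, while p120-catenin holds the cadherin at the surface. In the cytoplasm it is caught by a destruction complex of Axin, Apc and the kinases Gsk3 and casein kinase 1, which marks it for degradation. A Wnt signal blocks that complex, and β-catenin then enters the nucleus and acts with Tcf/Lef factors on their target genes. Plakoglobin, the product of Jup, is its closest relative and can take its place at the cadherin.

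The KO deletes the part of Ctnnb1 between LoxP sites in the second and the sixth intron, and Cre is driven by Pdx1 and so acts in pancreatic epithelium. The study's text considers Cre action likely mosaic. Mesenchyme, vessels, nerves and blood cells of the dissected organ keep both alleles. RNA of the whole pancreas was measured, so that fewer cells of a type and less RNA per cell cannot be told apart. Ctnnb1 lies on chromosome 9 at chr9:120933400-120960507 (GRCm38.p6). RefSeq gives it 2 transcript starts, both upstream of the floxed part, so a recombined allele still holds its promoter. That is why the promoter is printed here, as 250 bases before and 50 after the downstream of the 2 starts (chr9:120933328-120933627, plus strand), with a TATAAA that begins at position 131 in capitals. This window was chosen because it holds the TATAAA. The TATAAA lies between the 2 starts and does not adjoin the downstream one, which follows the first 250 bases. Whether it serves either start was not tested. Most of the window lies inside the span given for the gene, which begins at the upstream start.
Ctnnb1 promoter: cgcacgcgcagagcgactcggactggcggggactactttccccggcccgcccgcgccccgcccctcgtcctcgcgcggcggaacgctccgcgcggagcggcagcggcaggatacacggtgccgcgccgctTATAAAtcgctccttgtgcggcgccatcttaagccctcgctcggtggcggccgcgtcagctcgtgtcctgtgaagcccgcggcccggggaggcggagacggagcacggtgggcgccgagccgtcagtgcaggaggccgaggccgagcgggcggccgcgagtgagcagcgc
TATAAA on the strand of the gene was found in 2 of 8 such windows of the 5 genes with a window (Ctnnb1, Jup, Ctnnd1, Ctnnbip1 and Gsk3b) and in 8.32% of 32851 windows of all genes. The letters CTTTG followed by 2 bases that are each an A or a T, as in sites bound by Tcf/Lef factors, were found on either strand in 0 of the 8 windows and in 16.9% of all windows, which says only that these letters are not in these windows.

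None of the 28 probe sets passed an adjusted p of 0.05 in limma at either day or for the difference between the days. At E14.5 the adjusted p values ran from 0.711 to 0.989, and 0.0111% of all probe sets passed. At E16.5 they ran from 0.0971 to 0.959, and 2.62% of all probe sets passed. For the difference between the KO effects at the 2 days they ran from 0.207 to 0.993, with 0.349% of all probe sets passing. At an unadjusted p under 0.05 the members numbered 1 of 28 at E14.5 (3.57%, against 6.86% of all probe sets), 7 of 28 at E16.5 (25.0%, against 16.6%) and 4 of 28 for the difference (14.3%, against 10.4%). The methods' t-test was run here on all 45037 probe sets, without the fold change filter that the paper applied before it. It gave 3 of 28 at each day before adjustment (10.7%, against 5.04% of all probe sets on the earlier day and 12.3% on the later) and 0 after it. No overlap between the KO and the wildtype values was seen for 9 of 28 probe sets at E14.5 (32.1%, against 16.2% of all probe sets) and for 7 of 28 at E16.5 (25.0%, against 25.6%). Probe sets of 1 gene are not independent, and no test was made of these shares. The E14.5 wildtype names, WT_522B and WT_522C, share a number whose meaning is not given, so that pair may not be independent either. The median log2 fold change of the members was 0.07 (all probe sets: 0.02) at E14.5 and -0.04 (all probe sets: 0.03) at E16.5.

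**Figure D1:**
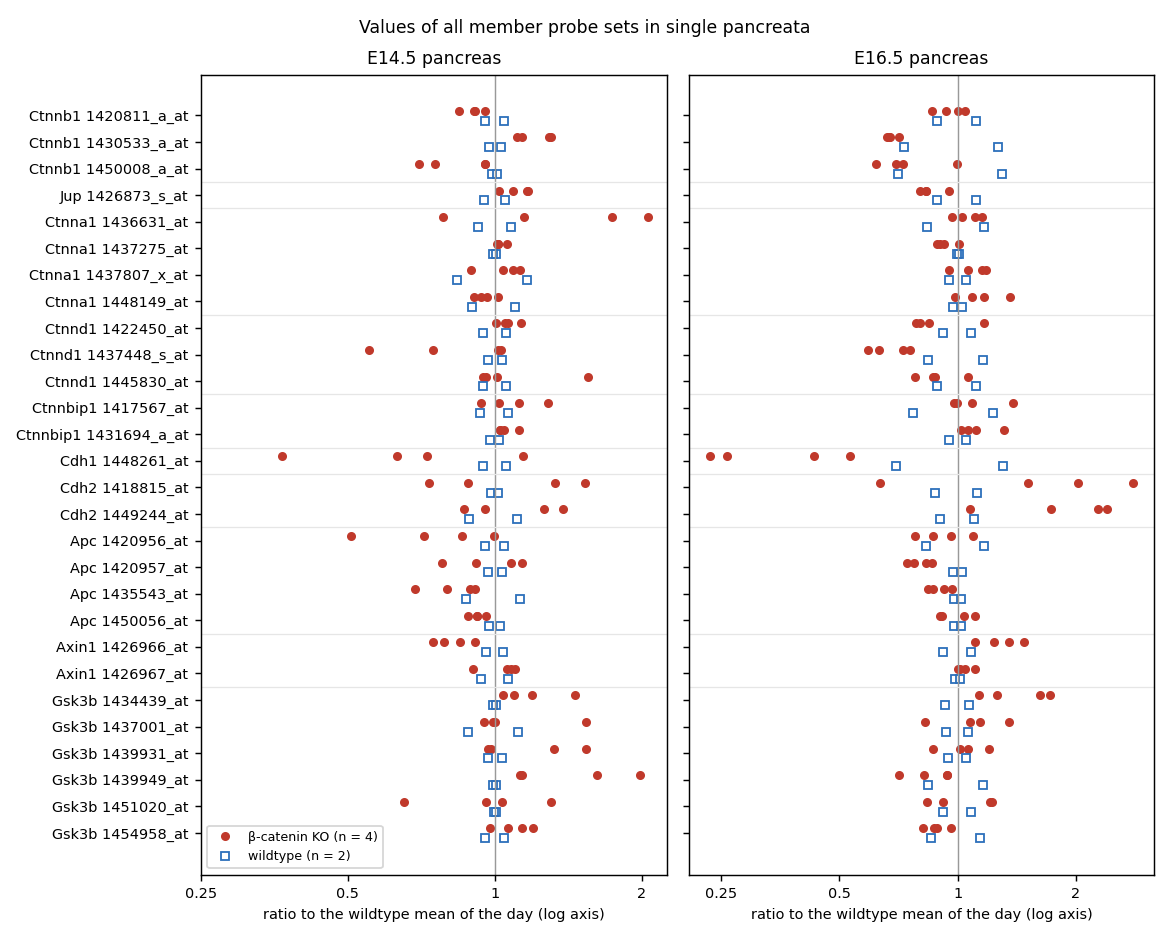
Ratio to the wildtype mean of the day (log axis) for each of the 28 probe sets in every pancreas at E14.5 and E16.5, with KO as filled circles and wildtype as open squares. Cdh1 at E16.5 reaches the lowest value, 0.234, and Cdh2 at E16.5 the highest, 2.80.

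The intervals give the size of a change under the fit, which takes the spread of a probe set from all 4 groups together. They are no firm limit. For Ctnnb1 1430533_a_at at E16.5 the interval was -0.88 to -0.13 on the log2 scale, and the estimate without WT_628G was -0.90. The 95% interval of the fold change, not widened for the number of probe sets, lay within 2-fold in both directions for 24 of 28 probe sets at E14.5 and for 24 of 28 at E16.5. The exceptions at E14.5 were single probe sets of Ctnna1, Cdh1, Cdh2 and Gsk3b, and at E16.5 those of Cdh1, both of Cdh2, and a probe set of Ctnnd1.

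**Figure D2:**
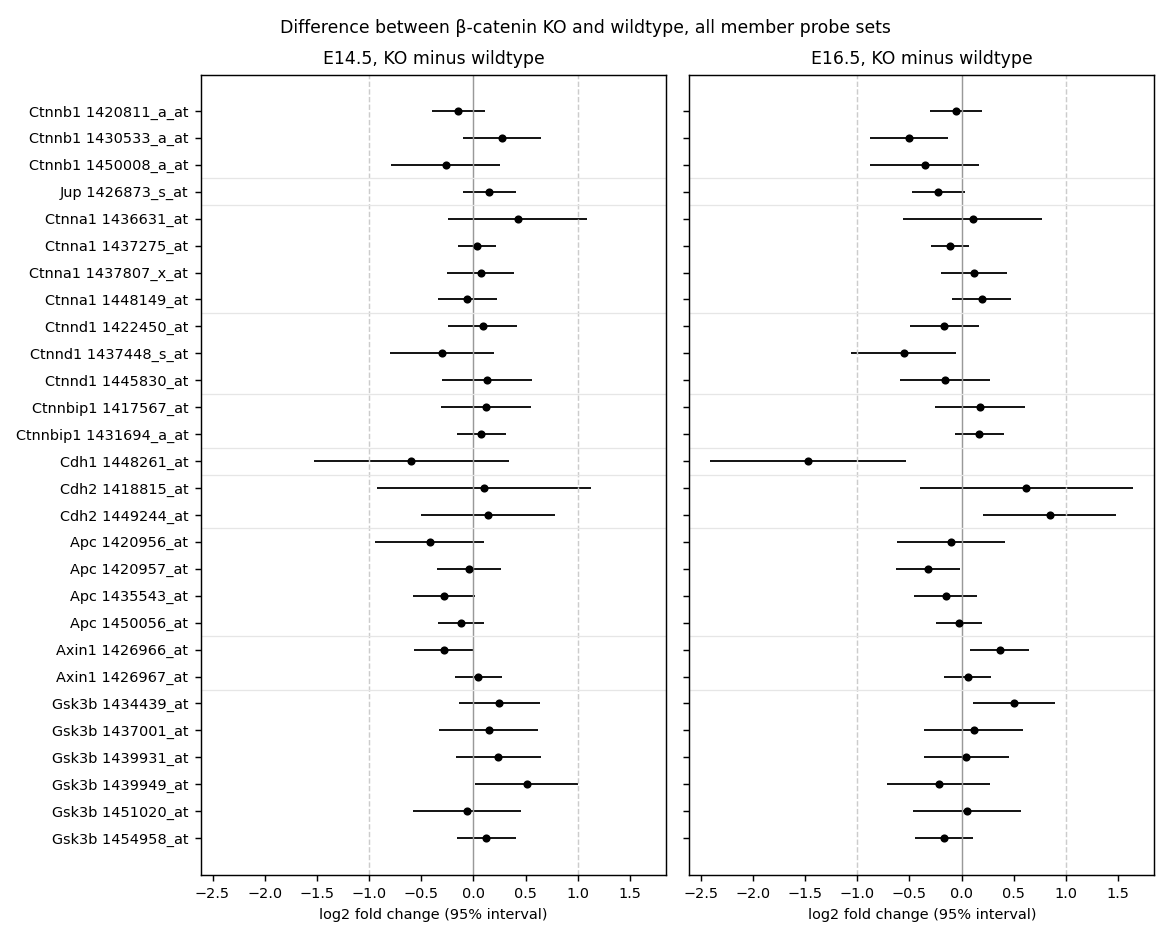
Log2 fold change, KO minus wildtype, with its 95% interval from limma for the 28 probe sets at E14.5 and E16.5; dashed lines mark 2-fold. Cdh1 at E16.5 has the lowest estimate, -1.47, and a wide interval.

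Ctnnb1 itself, the gene targeted, was not called lower by any of its 3 probe sets. Whether they lie inside or outside the deleted exons is not known here, so they check neither the deletion nor the genotype labels. Probe set 1420811_a_at read 0.907, 0.913, 0.956 and 0.845 in the KO pancreata at E14.5, against 0.957 and 1.04 in wildtype. The E16.5 readings were 0.936, 0.862, 1.0 and 1.05 in KO, against 0.887 and 1.11 in wildtype. The KO values lay below both wildtype values at E14.5, by a narrow margin. They overlapped wildtype at E16.5, where KO_541J was below both. The log2 fold change was -0.14 at E14.5 (95% interval -0.40 to 0.11, adjusted p = 0.901 in limma) and -0.05 at E16.5 (-0.30 to 0.20, adjusted p = 0.896).

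Probe set 1450008_a_at of Ctnnb1 read 0.955, 0.754, 0.953 and 0.701 in KO at E14.5, against 0.987 and 1.01 in wildtype. Its values at E16.5 were 0.620, 0.726, 0.696 and 0.995 in KO, against 0.703 and 1.30 in wildtype. The KO values were below wildtype at E14.5 and overlapped at E16.5, where the wildtype pair was far apart. The log2 fold changes were -0.26 (-0.79 to 0.26, adjusted p = 0.920 in limma) at E14.5 and -0.35 (-0.88 to 0.17, adjusted p = 0.531) at E16.5. The E16.5 value turned with the wildtype array used: it was -0.79 without WT_628G and 0.09 without WT_622A. Taken over the 3 probe sets, the lower ends of the intervals correspond to reductions of 1.07-fold to 1.73-fold at E14.5 and of 1.24-fold to 1.84-fold at E16.5. With the 3 averaged into a gene mean, the log2 fold change was -0.04 at E14.5 (adjusted p = 0.968) and -0.30 at E16.5 (adjusted p = 0.296), a value that rests on the same wildtype pair.

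The remaining probe set, 1430533_a_at, stood on opposite sides of wildtype at the 2 days. It read 1.11, 1.29, 1.31 and 1.14 in KO at E14.5, against 0.972 and 1.03 in wildtype, so that all 4 KO values were above both. At E16.5 it read 0.672, 0.671, 0.709 and 0.662 in KO, against 0.731 and 1.27 in wildtype, so that all 4 were below both. The KO values at E16.5 were close together, at 0.678 ± 0.0211 (SD, n = 4), and the lower wildtype value lay near them. The log2 fold change was 0.27 at E14.5 (-0.10 to 0.65, adjusted p = 0.838 in limma) and -0.51 at E16.5 (-0.88 to -0.13, adjusted p = 0.152). The difference between the days was -0.78 ± 0.24 (SE), with an unadjusted p of 0.00769 in limma and an adjusted p of 0.253. Both values rested on the E16.5 wildtype pair. Without WT_628G the log2 fold change at E16.5 was -0.90 (adjusted p = 0.00850) and the difference between days -1.18 (adjusted p = 0.0169), and without WT_622A the change at E16.5 was -0.11.

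The E16.5 wildtype pair differed by 1.74-fold for 1430533_a_at and by 1.84-fold for 1450008_a_at, with WT_622A the higher. A gap as large was seen in 2.74% and 1.88% of all probe sets, and the median gap was 1.11-fold. Cdh1, described below, had a gap of 1.87-fold in the same direction.

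**Figure D3:**
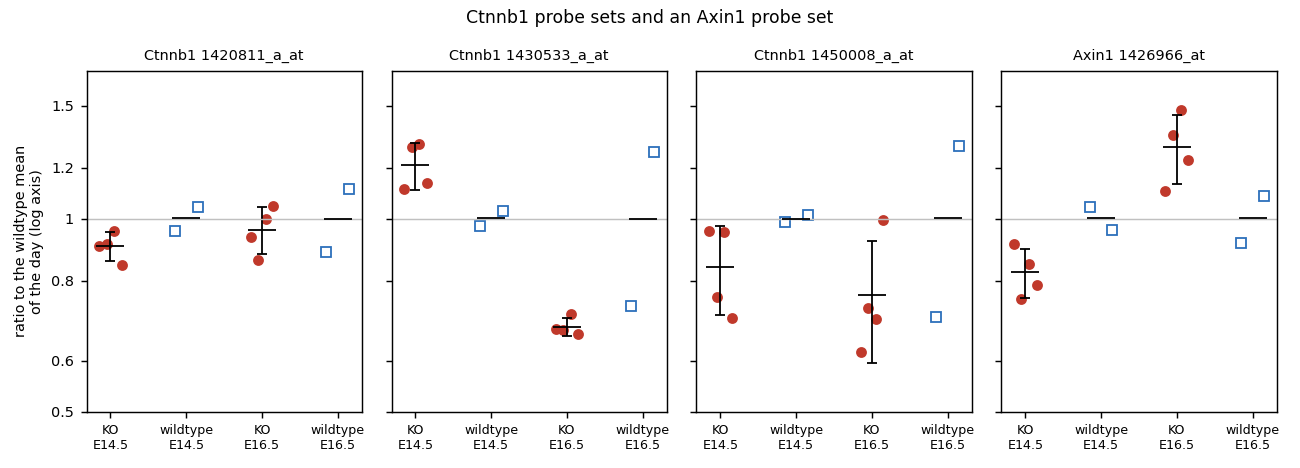
Ratio to the wildtype mean of the day (log axis) for the 3 Ctnnb1 probe sets and Axin1 1426966_at, with KO as filled circles (bars: mean and SD, n = 4) and wildtype as open squares (bar: mean, n = 2). The KO values of Ctnnb1 1430533_a_at lie above wildtype at E14.5 and below it at E16.5, and those of Axin1 1426966_at lie below it at E14.5 and above it at E16.5.

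Plakoglobin (Jup, chr11:100368856-100397839), which also anchors desmosomes, did not pass in either direction. Jup read 1.02, 1.17, 1.09 and 1.16 in KO at E14.5, against 1.05 and 0.952 in wildtype. The E16.5 readings were 0.948, 0.833, 0.833 and 0.801 in KO, against 0.885 and 1.11 in wildtype. The groups overlapped at both days. The log2 fold change was 0.15 at E14.5 (-0.10 to 0.41, adjusted p = 0.893 in limma) and -0.22 at E16.5 (-0.48 to 0.03, adjusted p = 0.386). The upper ends correspond to increases of 1.33-fold at E14.5 and 1.02-fold at E16.5. The E16.5 effect minus the E14.5 effect was -0.37 ± 0.17 (SE, adjusted p = 0.465).

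Among the classical cadherins, the receptors that carry adhesion between cells, Cdh1 and Cdh2 had the largest estimates of the 10 genes at E16.5, in opposite directions. Cdh1 (chr8:106603350-106670247) encodes E-cadherin, the cadherin of epithelium. At E14.5 its only probe set read 0.726, 0.367, 1.14 and 0.631 in KO, against 1.05 and 0.945 in wildtype. Its values at E16.5 were 0.432, 0.234, 0.259 and 0.531 in KO, against 0.696 and 1.30 in wildtype. All 4 KO values were below both wildtype values at E16.5, whereas at E14.5 KO_615A was above both. Cdh1 averaged 0.364 ± 0.142 in KO at E16.5 and 0.717 ± 0.322 in KO at E14.5 (SD, n = 4). The log2 fold change was -1.47 ± 0.43 (SE) at E16.5 (-2.41 to -0.54), with an unadjusted p of 0.00510 in limma, and only 0.488% of all probe sets were lower. With an adjusted p of 0.0971 it did not pass. At E14.5 it was -0.59 (-1.53 to 0.34, adjusted p = 0.873), and the difference between the days was not called either (-0.88, adjusted p = 0.709).

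Leaving out WT_628G gave a Cdh1 change of -1.92 on the log2 scale at E16.5, and leaving out WT_622A gave -1.02. Over all alternatives the adjusted p ran from 0.0395 to 0.671, and it was under 0.05 only without KO_540G and KO_591D together, the arrays with the lowest array weights.

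Cdh2 (chr18:16588877-16809246) encodes N-cadherin, found in mesenchyme, nerve and also endocrine cells of the pancreas. Its probe set 1449244_at read 1.26, 0.864, 0.954 and 1.38 in KO at E14.5, against 1.11 and 0.888 in wildtype. At E16.5 it read 1.08, 2.40, 2.28 and 1.73 in KO, against 1.10 and 0.899 in wildtype. The groups overlapped at E14.5, and at E16.5 only KO_591D lay among the wildtype values. Its log2 fold change was 0.14 at E14.5 (-0.50 to 0.78, adjusted p = 0.976 in limma) and 0.84 ± 0.29 (SE) at E16.5 (0.20 to 1.48, adjusted p = 0.162). It passed at E16.5 without KO_591D (1.09, adjusted p = 0.0174) and with array weights (1.01, adjusted p = 0.0464). The other Cdh2 probe set, 1418815_at, read 0.636, 2.80, 2.02 and 1.51 in KO at E16.5, against 0.878 and 1.12 in wildtype. There too KO_591D was the lowest, below both wildtype values, and the other 3 KO values were above both (log2 fold change 0.62, -0.40 to 1.65, adjusted p = 0.590). At E14.5 it read 1.53, 0.734, 0.881 and 1.33 in KO, against 0.982 and 1.02 in wildtype, on both sides of wildtype (0.10, adjusted p = 0.989).

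Markers of epithelium and mesenchyme are set beside the cadherins here. The median log2 ratio of 12 epithelial markers was -0.29, -1.16, -0.996 and -0.25 in the E16.5 KO pancreata, against -0.20 and 0.17 in wildtype, and Cdh1 stood at -1.21, -2.09, -1.95 and -0.91 in KO and at -0.52 and 0.38 in wildtype. Cdh1 was thus below the epithelial median in each of these KO pancreata, and lowest where that median was lowest. This was not particular to them. Cdh1 was also below the median in WT_628G, WT_522C, KO_540C, KO_540G (-1.45 against -0.49) and KO_615B. It was above the median in KO_615A, WT_622A and WT_522B. Of the 12 epithelial markers 9 were below and 3 above the wildtype mean at E16.5 on the log2 scale, and 1 was called lower, Spint2, an inhibitor of serine proteases at the epithelial surface (0.485 ± 0.113 in KO, SD, n = 4, adjusted p = 0.0251 in limma). The median log2 ratio of 9 mesenchyme markers was 0.25, 0.92, 1.40 and 0.61 in the E16.5 KO pancreata, against 0.03 and -0.03 in wildtype. Of these KO pancreata KO_591D was lowest in this list as in Cdh2. It was also lowest in the endocrine, neuron and glia, leukocyte and endothelial lists (0.03, 0.22, 0.02 and 0.05). At E14.5 KO_540G was lowest in both Cdh2 probe sets (-0.45 and -0.21). Its mesenchyme median was 0.47, and the lowest was 0.23 in KO_615A. Of the 9 mesenchyme markers 8 were above wildtype at E16.5, as were 56.1% of all probe sets. Called higher were 2: Col3a1, a fibrillar collagen, at 2.15 ± 0.671 and Lum, a matrix proteoglycan, at 2.88 ± 0.70 in KO. By gene means 1 of the 9 was called. The median of 4 neuron and glia markers, of 7 listed, was 0.22 to 0.92 in E16.5 KO and -0.02 to 0.02 in wildtype. Of these 4, 1 was called higher at E16.5, but 0 by gene means. At E14.5 the epithelial median was -0.49 to 0.03 in KO and -0.06 to 0.06 in wildtype, and the mesenchymal 0.23 to 0.55 in KO and -0.03 to 0.03 in wildtype. Of 7 markers of endocrine cells, in which N-cadherin is also found, all 7 were above wildtype at each day with 0 called. Of all probe sets 55.4% were above wildtype at E14.5 and 56.1% at E16.5. Under an unadjusted p of 0.05 in limma were 5 of the 7 at E14.5 (71.4%, against 6.86% of all probe sets). At E16.5 it was 3 (42.9%, against 16.6%). The endocrine median log2 fold change was 0.97 at the earlier and 0.81 at the later day, or 0.67 and 0.38 with all probe sets of a gene averaged. The other marker lists had median log2 fold changes at E16.5 of -1.74 (9 acinar genes, 4 called lower), -1.11 (4 duct genes, 2 called lower), 0.14 (6 endothelial genes, 0 called), 0.30 (6 leukocyte genes, 1 called higher, but 0.47 with 0 called by gene means), -0.50 (3 erythroid genes, 0 called, but -0.24 with 1 called higher by gene means) and -0.24 (4 muscle genes, 0 called). As ratios, these values do not show whether any marker was near 0 in abundance, and the part of these lists in the cadherin values was not tested.

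**Figure D4:**
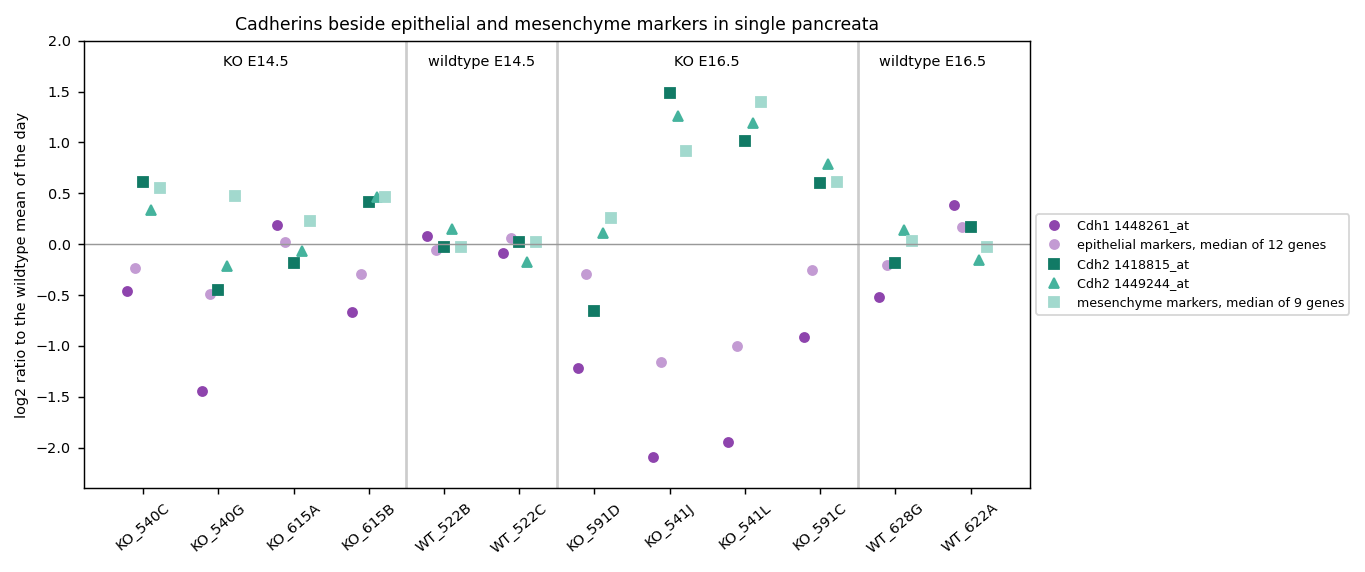
Log2 ratio to the wildtype mean of the day in each pancreas for Cdh1, the median of 12 epithelial markers, both Cdh2 probe sets and the median of 9 mesenchyme markers. In the E16.5 KO pancreata Cdh1 runs from -2.09 to -0.91, below the epithelial median, as it also does in WT_628G, WT_522C, KO_540C, KO_540G and KO_615B. Among the E16.5 KO pancreata KO_591D is lowest for both Cdh2 probe sets and for the mesenchyme median. Among those of E14.5 KO_540G is lowest for both Cdh2 probe sets, but KO_615A for the mesenchyme median.

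The catenins that complete the adhesion complex had smaller estimates at E16.5 than the cadherins. Ctnnd1 (chr2:84587096-84658977) encodes p120-catenin. Its probe set 1437448_s_at read 1.01, 0.554, 1.03 and 0.748 in KO at E14.5, against 0.967 and 1.03 in wildtype. The E16.5 readings were 0.592, 0.632, 0.755 and 0.726 in KO, against 0.839 and 1.16 in wildtype. All 4 KO values were below both wildtype values at E16.5, with a log2 fold change of -0.55 (-1.06 to -0.05, adjusted p = 0.246 in limma), while the groups overlapped at E14.5 (-0.30, adjusted p = 0.890). For 1422450_at the log2 fold changes at the 2 days were 0.09 and -0.17, and for 1445830_at 0.13 and -0.16. All 3 estimates were below 0 at E16.5, and their gene mean was -0.29 ± 0.09 (SE), with an adjusted p of 0.0836 over 18193 genes. The sign did not hold throughout: over the alternatives 1445830_at ran from -0.33 to 0.01 at E16.5. For 1422450_at KO_591D read 1.17 at E16.5, above both wildtype values (0.918 and 1.08). Ctnna1 (chr18:35118902-35254776), which encodes αE-catenin, the link to actin, had 4 probe sets. Its 1436631_at read 0.784, 2.07, 1.15 and 1.74 in KO at E14.5, against 0.922 and 1.08 in wildtype. These KO values lay on both sides of wildtype, and the log2 fold change was 0.43 (-0.24 to 1.09, adjusted p = 0.870). At E16.5 it was 0.11. The other 3 Ctnna1 probe sets had log2 fold changes of -0.06 to 0.07 at E14.5 and -0.11 to 0.19 at E16.5.

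The destruction complex gave mixed values. Axin1 (chr17:26131217-26195811) encodes its scaffold, and its probe set 1426966_at was on opposite sides of wildtype at the 2 days. It read 0.912, 0.748, 0.849 and 0.788 in KO at E14.5, against 1.04 and 0.958 in wildtype. Its values at E16.5 were 1.10, 1.35, 1.47 and 1.24 in KO, against 0.917 and 1.08 in wildtype. All 4 KO values were thus below both wildtype values at E14.5 and above both at E16.5. The log2 fold change was -0.28 at E14.5 (adjusted p = 0.728 in limma) and 0.37 at E16.5 (0.08 to 0.65, adjusted p = 0.172). The difference between the days was 0.65 ± 0.18 (SE, 0.24 to 1.05), with an unadjusted p of 0.00445 in limma and an adjusted p of 0.207. The E16.5 value passed only without KO_540G and KO_591D together (0.44, adjusted p = 0.0460). The other Axin1 probe set, 1426967_at, did not show this, its estimates being 0.05 and 0.06.

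Apc (chr18:34220297-34322190) encodes the large protein that brings β-catenin to Axin, and each of its 4 probe sets had a log2 fold change below 0 at both days, from -0.42 to -0.05 at E14.5 and from -0.32 to -0.02 at E16.5. None passed, and these signs did not hold throughout: 1420957_at at E14.5 stood above 0 with array weights, without KO_540C or without WT_522C. At E16.5 1420956_at stood above 0 without WT_628G, and 1450056_at without KO_541J, KO_541L or WT_622A. Probe set 1420956_at read 0.857, 0.507, 0.999 and 0.716 in KO at E14.5, against 0.956 and 1.04 in wildtype, an overlap with KO_540G lowest (adjusted p = 0.802 in limma). Probe set 1420957_at read 0.774, 0.861, 0.831 and 0.746 in KO at E16.5, against 1.02 and 0.976 in wildtype. There all 4 KO values were below both wildtype values (log2 fold change -0.32, -0.62 to -0.01, adjusted p = 0.278). The gene mean of Apc was -0.22 at E14.5 (adjusted p = 0.597) and -0.15 at E16.5 (adjusted p = 0.490).

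Gsk3b (chr16:38089001-38246084), the kinase that phosphorylates β-catenin, had 6 probe sets whose estimates differed in sign. Its 1439949_at read 1.13, 1.99, 1.13 and 1.62 in KO at E14.5, against 0.993 and 1.01 in wildtype, all 4 above both (log2 fold change 0.51, 0.02 to 1.01, unadjusted p = 0.0440 and adjusted p = 0.711 in limma). At E16.5 it was at -0.22, and the difference between the days was -0.73 (adjusted p = 0.456). Its 1434439_at read 1.13, 1.62, 1.72 and 1.26 in KO at E16.5, against 0.928 and 1.07 in wildtype, again all 4 above both (0.50, 0.11 to 0.89, adjusted p = 0.170). Its estimate at E14.5 was 0.25. The other 4 probe sets ran from -0.06 to 0.24 at E14.5 and from -0.17 to 0.11 at E16.5. Averaged over the 6, Gsk3b was at 0.20 at E14.5 (adjusted p = 0.694) and 0.05 at E16.5 (adjusted p = 0.868).

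Ctnnbip1 (chr4:149518241-149566437) encodes ICAT, a small inhibitor that keeps β-catenin from Tcf factors. Its 1431694_a_at read 1.12, 1.05, 1.03 and 1.03 in KO at E14.5, against 1.02 and 0.979 in wildtype. At E16.5 it read 1.06, 1.02, 1.31 and 1.12 in KO, against 0.951 and 1.05 in wildtype. The KO values were just above wildtype at E14.5 and overlapped it at E16.5. The log2 fold changes were 0.08 and 0.17 for this probe set and 0.12 and 0.18 for the other, 1417567_at, at E14.5 and E16.5 (adjusted p = 0.499 to 0.966 in limma).

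Around these 10 genes, 57 genes of 6 related groups were looked up, with 1 probe set per gene chosen by its name alone, and 56 were measured. At E14.5 none of the 56 was called. At E16.5 only Cdh10, a cadherin known from the nervous system, was called, at 1.45 ± 0.108 in KO (SD, n = 4), against 0.938 and 1.06 in wildtype (log2 fold change 0.53, adjusted p = 0.0332 in limma). It was 1 of 11 cadherins outside the members, whose log2 fold changes had a median of -0.02 at the earlier and 0.07 at the later day. At E16.5 9 of the 11 were above wildtype, against 56.1% of all probe sets. Under an unadjusted p of 0.05 in limma were 0 at E14.5 and 4 of the 11 at E16.5 (36.4%, against 16.6% of all probe sets). The shares were not tested. Cdh6, a cadherin of developing kidney and brain, was at 1.90 ± 0.423 in KO at E16.5 (adjusted p = 0.0671), with all 4 KO above wildtype.

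None of the 6 desmosome genes that partner plakoglobin was called, and their median log2 fold change was -0.01 at the earlier and -0.26 at the later day. At E14.5 2 of the 6 had an unadjusted p under 0.05 in limma (33.3%, against 6.86% of all probe sets). At E16.5 it was 1 (16.7%, against 16.6%). Dsc2, a desmosomal cadherin of simple epithelia, was at 0.570 ± 0.185 in KO at E14.5 (adjusted p = 0.634 in limma) and 0.499 ± 0.161 in KO at E16.5 (adjusted p = 0.104), with all 4 KO below both wildtype values at each day. Epithelial markers had the lower medians given above at E16.5, and their part in this was not tested. With all probe sets of a gene averaged, the desmosome medians were -0.38 and -0.67.

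The 7 catenins and armadillo relatives had median log2 fold changes of 0.14 (E14.5) and 0.11 (E16.5), and none was called. Under an unadjusted p of 0.05 in limma were 0 at E14.5 and 3 of the 7 at E16.5 (42.9%, against 16.6% of all probe sets). The shares were not tested. Arvcf, a p120-catenin relative, was at 1.37 ± 0.174 in KO at E16.5 (adjusted p = 0.0971 in limma), and Ctnna2, the neural α-catenin, at 1.27 ± 0.182 (adjusted p = 0.235). The 7 other junction linkers, such as vinculin and the nectins, had median log2 fold changes of 0.12 (E14.5) and -0.03 (E16.5). At either day 0 were called and 0 had an unadjusted p under 0.05 in limma.

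The 16 regulators of the destruction complex had median log2 fold changes of 0.01 (E14.5) and 0.11 (E16.5), with 0 called. Those under an unadjusted p of 0.05 in limma numbered 0 at E14.5 and 3 at E16.5 (18.8% of the 16, near the 16.6% of all probe sets): Dvl1, which passes the Wnt signal to Axin, at 0.760 ± 0.0457 in KO (adjusted p = 0.178), Ppp2ca, a catalytic subunit of the phosphatase PP2A, at 1.26 ± 0.0932 (adjusted p = 0.215) and Gsk3a, the close relative of Gsk3b, at 1.18 ± 0.0712 (adjusted p = 0.247). Of 10 nuclear cofactors and inhibitors 9 were measured, with median log2 fold changes of 0.10 (E14.5) and 0.08 (E16.5) and 0 called. At each day 1 of the 9 had an unadjusted p under 0.05 in limma (11.1%). Cby1, which like ICAT holds β-catenin from Tcf factors, was at 1.24 ± 0.0884 in KO at E16.5 (adjusted p = 0.170).

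Among the 28 probe sets each E14.5 KO pancreas was the lowest or the highest of the 4 in 11 to 17, with KO_540G at 17 and KO_615A at 15. At E16.5 these counts were 9 to 20, with KO_591D at 20 and KO_541L at 16. KO_540G and KO_591D were the arrays with the lowest weights in limma, 0.281 and 0.422. Over all probe sets the interquartile range of the log2 ratios was 0.41 in KO_540G, 0.20 to 0.28 for the remaining E14.5 KO arrays and 0.11 for both wildtype arrays of that day. The medians of all arrays lay between -0.04 and 0.09.

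The transcripts whose log2 ratios ran most like each Ctnnb1 probe set over the 8 KO arrays are given as a description. For 1420811_a_at they were Rmnd5a (Pearson's r = 0.954), Ipp (0.943) and Anapc1 (0.938). For 1450008_a_at they were Tasp1 (0.943), Nxt2 (0.916) and Ccndbp1 (0.901), and for 1430533_a_at Epha1 (0.994), Hsd17b13 (0.994) and AY036118 (0.987). No transcript was among these for more than 1 of the 3 probe sets. The 8 arrays pool both days. For 1430533_a_at the KO values ran from 1.11 to 1.31 at E14.5 and from 0.662 to 0.709 at E16.5. Its r values therefore mainly follow this step between days, not likeness among pancreata of the same day. The points share arrays and the division by each day's wildtype mean, and with 8 arrays and 3457 to 31574 probe sets compared, no p is given.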

How the data were processed

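Total RNA of single pancreata was amplified in 2 rounds and hybridised to Affymetrix MOE430 2.0 arrays. Per the labels and the methods, the authors ran RMA in GeneSpring and scaled every probe set to the average of that day's wildtype arrays, and the deposited values are these linear ratios. Accordingly each day's wildtype pair adds up to 2, to within 3e-07. Depth has no meaning here, and the number of arrays limits the precision. No raw arrays were used.

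Of 45101 probe sets, 64 controls were set aside, leaving 45037. GEO's platform annotation gave 1 symbol to 34945 (18193 genes), several to 932 and none to 9160. For testing, limma 3.58.1 (R 4.3.3) took the log2 ratios in 4 groups (8 residual degrees of freedom, no filter on low values, no offset), two-sided, with Benjamini-Hochberg adjustment over all 45037 probe sets within each comparison and a threshold of 0.05. The script was tested on simulated data. Each embryo is a sample, and whether embryos shared a litter is not stated. No number in the animals' names was shared by KO and wildtype, so effects of that number and of genotype cannot be fully separated. WT_522B and WT_522C, the E14.5 wildtype pair, share a number, whereas WT_628G and WT_622A do not.

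Named are all members with every probe set, and related genes from lists. For these and the markers, the probe set ending in _at with the lowest number was taken, then other endings. The members, lists and tests were chosen with earlier results of these data known. Likeness was Pearson's r over the 8 KO arrays, among probe sets of other genes with at least as large a spread. Of 73 marker genes 64 were measured. Positions and promoters are from RefSeq tables of GRCm38.p6, and 5 of the 10 genes had a promoter window. Alternatives were other variance models, scaling, array weights, a block, the methods' t-test without the paper's fold change filter, gene means and leaving out arrays. Figures used matplotlib 3.10.9 in Python 3.11.15.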

Additional observations from a re-analysis of the deposited data

Results flagged for a closer look

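In 2 of the 28 probe sets the 4 KO values were all above both wildtype values on 1 day and all below them on the other, as in 767 (1.7%) of all probe sets. For Ctnnb1 1430533_a_at the KO effect at E16.5 minus that at E14.5 was -0.78 on the log2 scale (adjusted p = 0.253 in limma). For Axin1 1426966_at it was 0.65 (adjusted p = 0.207). Neither difference passed. The other Ctnnb1 probe sets had differences of 0.09 and -0.09, and the other Axin1 probe set 0.01.

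A single KO pancreas stood apart from the other 3, by a gap over Dixon's critical share of the range of the log2 ratios, in 3 of 56 groups of 4, where chance at 1 in 20 gives 2.8. All were at E14.5. KO_615A read 1.06 for Ctnna1 1437275_at and 1.54 for Gsk3b 1437001_at, and KO_540G read 1.55 for Ctnnd1 1445830_at.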

How the results depend on the processing

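Over all probe sets the E14.5 comparison gave 5 calls, the E16.5 comparison 1182 and that between the days 157. With a trended and robust variance these counts were 0, 86 and 14, with quantile normalization 9, 71 and 6, and with array weights 30, 2380 and 580. Fitting each day on its own arrays gave 14 and 159. The methods' t-test, run on all probe sets, gave 0 and 0 after adjustment (2269 and 5539 before). The paper's fold change filter was left out, so the authors' full procedure was not repeated. Median centring gave 3 and a random block on the number in the animal's name 11 at E14.5. Leaving out KO_540G and KO_591D together, chosen after seeing the data, gave 2, 3668 and 448. When single arrays were left out, the E14.5 calls numbered from 1, WT_522B being omitted, to 19, KO_615A being omitted, and the others 404 (without KO_541J) to 2862 (without KO_591D) at E16.5, and 8 (without WT_522B) to 408 (without KO_591D) for the difference; a lone wildtype array was assumed to vary like the other groups.

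Among the 28 probe sets the count called at E14.5 was 0 in each of these. At E16.5 it was 1 with array weights (Cdh2), 3 without KO_540G and KO_591D together (Cdh1, Cdh2 and Axin1), and 0 to 1 when single arrays were left out (Cdh2 without KO_591D, Ctnnb1 without WT_628G). For the difference it was 0 to 1 (Ctnnb1 without WT_628G). Uncalled log2 fold changes changed sign in 17 of 613 E14.5 values, 16 of 613 E16.5 values and 26 of 557 differences. With gene means the cadherin median at E14.5 was 0.07. No paired analysis was possible, because the labels pair no KO with a wildtype pancreas and no number in the animals' names was shared by KO and wildtype. With 2 wildtype arrays a day the intervals are wide and small differences could be missed. The intervals do not mark the smallest difference that could be called. Cdh1 at E16.5, for example, had an interval of -2.41 to -0.54 and did not pass.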
